A study of Mus musculus with 12 samples.

Results

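The genes described here are the nuclear genes for respiratory chain complexes II, III and IV, for cytochrome c and for complex V, the ATP synthase, in nuclear RNA of cortical excitatory neurons. They were taken by symbol: every gene starting with Sdha, Sdhb, Sdhc, Sdhd, Uqcr, Atp5 or Cox followed by a number from 4 to 8, with Cycs and Cyc1 added. This gave 51 of the 25834 genes listed at all 3 ages, of which 8 belong to complex II, 10 to complex III with cytochrome c, 16 to complex IV and 17 to complex V. Cox7b2 stayed below the filter on low values, so 50 of the 51 were tested. Cox8b was not listed at P0 and is no member.

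The study sequenced polyadenylated RNA from nuclei isolated from the cortex of male mice on the day of birth (P0) and on postnatal days 14 (P14) and 28 (P28), 4 biological replicates with 1 library each per age. All pups carried 1 copy each of the nuclear tag CAG-Sun1/sfGFP and of NEX-Cre (CAG-Sun1/sfGFP +/-; NEX-Cre +/-), and no group lacked either allele. The library names of P0 and P14 also hold the letters WT, and those of P28 do not. P0 replicate 1 and P28 replicate 4 are named as merged, and the names do not say what was merged. Cre driven from the NEX (Neurod6) locus, which is active in developing excitatory neurons of the cortex, switches on a green fluorescent nuclear envelope protein, and tagged nuclei were then pulled down with an antibody (INTACT). Values are therefore transcripts held in nuclei, and fewer tagged cells of a type and less RNA per cell cannot be told apart.

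Electrons enter the chain at complex I, or at complex II (succinate dehydrogenase), which is also an enzyme of the TCA cycle. Complex III passes them to cytochrome c and complex IV, cytochrome c oxidase, hands them to oxygen. Complexes III and IV pump protons, and the flow of protons back through the membrane part of complex V turns its c ring and drives ATP synthesis in the F1 head. Complex II is coded by nuclear genes alone, whereas complexes III, IV and V also hold subunits coded in mitochondrial DNA. Neurons depend on this chain for most of their ATP, and its genes are expressed in every cell with mitochondria.

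Each library held between 13195973 and 33611769 reads in genes, with all P0 libraries (13195973 to 16599217) shallower than the P14 and P28 libraries. The least abundant tested members were counted with as few as 2 reads in a library (Cox6a2), whereas Atp5b had 11102 to 25168. Replicate 2 of P14 stood apart: its mean correlation with the other P14 libraries was 0.951 over all genes tested, against at least 0.976 for every other library with its own age. Its summed nuclear long noncoding RNAs were 26566 CPM (reads per 1000000 reads in genes, scaled between libraries), against 9613 to 14269 in the other P14 libraries. Its sums for 7 of the 8 cell type marker lists were the lowest at P14, all but that for progenitors: 2137 CPM for excitatory neurons (other P14 libraries 3125 to 3267), 984 for oligodendrocytes (1707 to 2412), 1291 for astrocytes (1679 to 2294), 220 for inhibitory neurons (291 to 353), 86.1 for oligodendrocyte precursors (106 to 140), 54.3 for vessels (157 to 187) and 44.7 for microglia (82.0 to 91.6). Sums of cell type markers also moved with age, given here as the range over the libraries at P0, P14 and P28. The 8 excitatory neuron markers summed to 1504 to 1726, 2137 to 3267 and 3671 to 3958 CPM, and none was at 0 in any library. The 7 astrocyte markers summed to 446 to 639, 1291 to 2294 and 1280 to 1381; of these, 3 rose and 1 fell by P14, 2 fell from P14 to P28, and 2 were higher and 3 lower at P28 than at P0, with Slc1a2 alone at 153 ± 11.6, 1379 ± 253 and 1095 ± 25.2 (SD, n = 4). The 7 vessel markers summed to 900.4 to 1480, 54.3 to 187 and 33.5 to 80.03, the 7 oligodendrocyte markers to 93.5 to 102, 984 to 2412 and 1798 to 2921, the 7 microglia markers to 25.5 to 36.7, 44.7 to 91.6 and 66.7 to 81.3, and the 7 progenitor markers to 168 to 234, 28.4 to 65.6 and 21.4 to 27.8. The 5 oligodendrocyte precursor markers summed to 133 to 161, 86.1 to 140 and 90.6 to 134. The 8 inhibitory neuron markers summed to 376 to 395, 220 to 353 and 293 to 384, while single ones moved apart: Lhx6 went from 64.0 to 69.8 at P0 down to 7.47 to 9.42 at P28 and Dlx1 from 84.1 to 109 down to 8.78 to 15.6, whereas Vip and Pvalb rose, as given with Cox6a2. The part of these changes in the results on the respiratory genes was not tested. Libraries of the 3 ages carry differently styled names in the labels and were normalized in separate tables by the authors, so age and any batch of preparation cannot be told apart.

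Between P0 and P14 most of these genes rose, and between P14 and P28 about as many fell as stayed within the test's error, with none that rose. At P14, 35 of 50 members were higher than at P0 and 3 were lower (limma, Benjamini-Hochberg adjusted p under 0.05 over all 15734 genes tested). This is 70% of the members, beside 34.4% of all genes tested that rose and 34.5% that fell. The median log2 fold change of the members was 0.47, against 0.01 over all genes. From P14 to P28, 0 members rose, where 9.22% of all genes did, and 26 fell, which is 52% of the members beside 9.09% of all genes, with a median of -0.33 against -0.01. Cox8a missed the threshold in the rising direction and passed it under other settings, as described with complex IV.

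Over the whole interval from P0 to P28, 17 members were higher and 11 lower, beside 35.7% and 35.6% of all genes, so the share risen (34%) was close to that of all genes and the share fallen (22%) was below it. The median log2 change was 0.05, against 0.00 over all genes. The 3 comparisons share libraries, so their calls are not separate pieces of evidence, and they are given side by side. Of the 35 members that rose to P14, 21 had fallen again by P28, and 14 did not pass the test between P14 and P28. Among the 21, 4 were below their P0 level at P28 (Sdhd, Cox6b1, Atp5e and Atp5pb), 12 did not differ from it by the test, and 5 were still above it (Cycs, Uqcr10, Uqcr11, Cox7b and Atp5g1). Another 12 members rose to P14, showed no called change afterwards and were above P0 at P28: Sdha, Cyc1, Uqcrb, Uqcrc1, Uqcrq, Cox5b, Cox8a, Cox6a2, Atp5d, Atp5h, Atp5j and Atp5l. Without rescaling between the tables, the authors' values were higher at P14 than P0 by 0.47 (log2) in the median of all genes, with a median of -0.20 from P14 to P28 and of 0.28 from P0 to P28, and the P28 to P0 count became 29 higher and 5 lower.

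**Figure D1:**
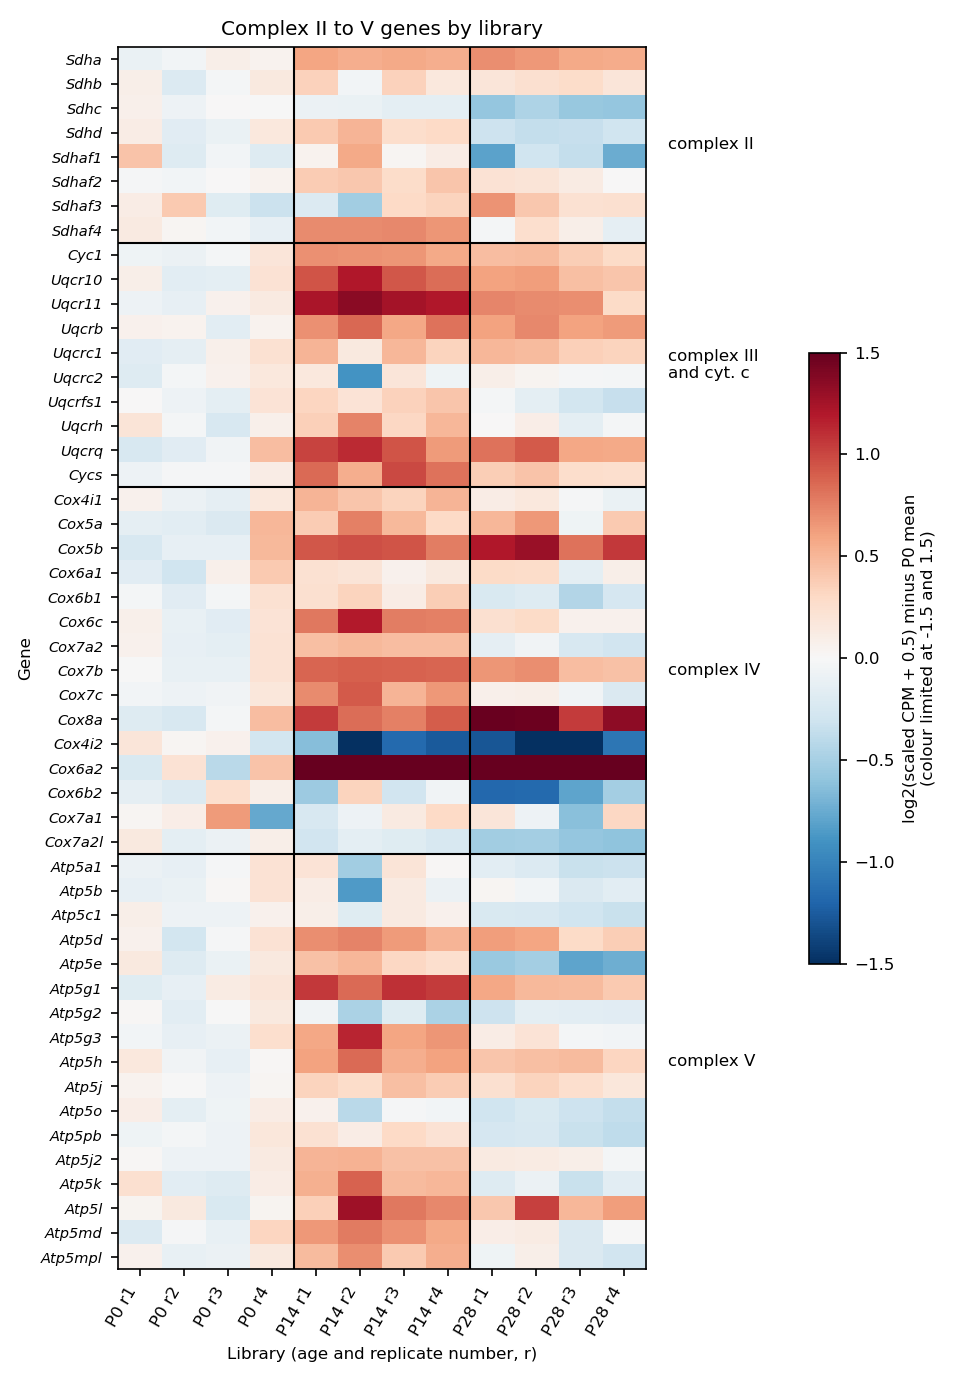
Level of the 50 tested members in each of the 12 libraries (columns, age and replicate number) as log2(scaled CPM + 0.5) minus the gene's mean over the P0 libraries, with genes in rows by complex; red is above and blue below the P0 mean, and colour is limited at -1.5 and 1.5. The P14 block is mostly red, the P28 block is paler, and replicate 2 of P14 is blue for Uqcrc2, Atp5a1 and Atp5b where the other P14 libraries are near or above the P0 mean.

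The complexes differed in how many of their members rose by P14. In complex III with cytochrome c 9 of 10 rose (median log2 change 0.69), and in the main isoforms of complex IV 9 of 10 (0.59). In complex V 12 of 17 rose (0.48), and in complex II 4 of 8 (0.28). Over all 15 tested members of complex IV, 10 rose and 2 fell (0.47). The medians per library relative to the P0 mean did not overlap between P0 and P14 in complexes II, III, IV or V: for complex III P0 libraries lay between -0.08 and 0.17, P14 libraries between 0.60 and 0.71 and P28 libraries between 0.29 and 0.48, for all tested members of complex IV the 3 ranges were -0.12 to 0.21, 0.45 to 0.48 and -0.06 to 0.18, and for complex V they were -0.11 to 0.15, 0.44 to 0.52 and -0.22 to 0.09. At P28 the complex III values were above all P0 values, while those of complexes IV and V overlapped P0. These counts and medians describe the groups; no test compared one complex with another.

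**Figure D2:**
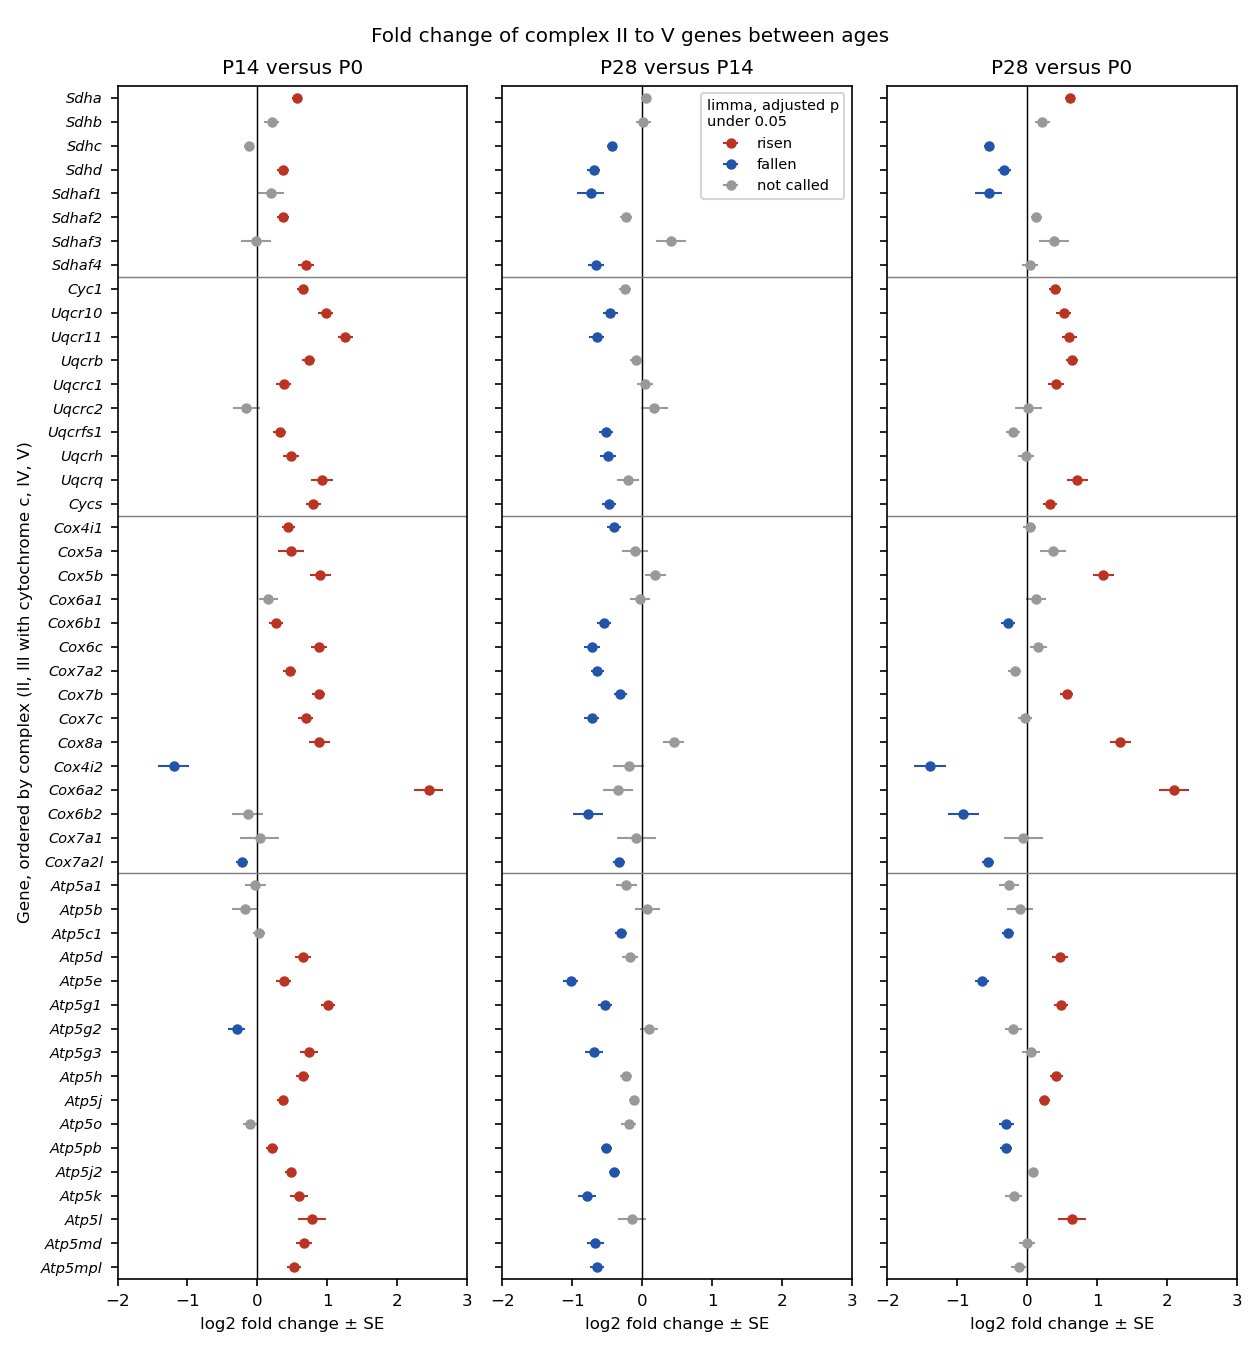
Log2 fold change with its standard error (x axis, on the log2(scaled CPM + 0.5) scale) of each tested member (y axis) in the 3 comparisons, coloured by the call of limma at an adjusted p under 0.05 (red risen, blue fallen, grey not called). In P14 versus P0 35 genes are red and 3 blue, in P28 versus P14 26 are blue and 0 red, and in P28 versus P0 17 are red and 11 blue.

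Within complex II the 4 subunits went different ways. Sdha carries the flavin that takes electrons from succinate, Sdhb carries iron-sulfur clusters, and Sdhc and Sdhd anchor the enzyme in the membrane and bind ubiquinone. Sdha (ENSMUSG00000021577) stood at 164, 172, 187 and 183 scaled CPM in P0 replicates 1 to 4, at 267, 258, 262 and 258 at P14, and at 286, 276, 263 and 260 at P28. All P14 and P28 values were above all P0 values and overlapped each other. Its rise to P14 was 0.56 ± 0.07 (log2, SE; n = 4 and 4, limma adjusted p = 1.43e-05) and its rise from P0 to P28 was 0.62 ± 0.07 (adjusted p = 5.1e-06). Both membrane anchors were lower at P28 than at P0. Sdhc (ENSMUSG00000058076) was at 88.9, 79.7, 84.3 and 83.5 CPM at P0, 79.0, 78.3, 75.7 and 75.8 at P14, and 55.9, 60.6, 56.6 and 55.9 at P28. The P28 libraries lay below all others, with a fall of -0.43 ± 0.07 from P14 (limma adjusted p = 0.00152) and of -0.55 ± 0.07 from P0 (adjusted p = 1.06e-05).

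Sdhd (ENSMUSG00000000171) first rose and then fell below where it began. It was at 92.3, 75.9, 79.7 and 95.9 CPM at P0, 112, 122, 103 and 105 at P14, and 68.8, 66.8, 67.0 and 69.6 at P28, so that the 3 ages did not overlap. The log2 changes were 0.37 ± 0.09 to P14 (limma adjusted p = 0.00288), -0.69 ± 0.09 from P14 to P28 (0.00041) and -0.33 ± 0.09 from P0 to P28 (0.00573). The last of these was -0.0471 in the authors' values without rescaling and was not called there (limma adjusted p = 0.653). Sdhb passed the test in no comparison, with 106 ± 11.1 CPM (SD, n = 4) at P0, 122 ± 15.2 at P14 and 123 ± 4.09 at P28. Its lowest P14 value, 102, was in replicate 2, and without that library its log2 change to P14 of 0.20 became 0.29 and passed the test (limma adjusted p = 0.0086).

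The 4 assembly factors of complex II also differed among themselves. Sdhaf4, which binds the flavin-loaded Sdha before it joins the complex, was at 11.6, 10.7, 10.2 and 9.57 CPM at P0, 17.4, 17.5, 17.6 and 16.9 at P14, and 10.3, 12.6, 11.2 and 9.54 at P28, so that P14 stood above the other ages, which overlapped. It rose by 0.70 ± 0.11 and fell by 0.66 ± 0.11 (log2; limma adjusted p = 0.000102 and 0.00205). Sdhaf2, needed for the flavin of Sdha, was at 36.4, 36.0, 37.0 and 38.4 CPM at P0, 48.4, 49.0, 44.7 and 49.3 at P14, and 43.2, 42.2, 40.1 and 37.1 at P28. It rose by 0.37 ± 0.08 to P14 (adjusted p = 0.00119), when all values were above those of the other ages. Sdhaf3, which acts in the maturation of Sdhb, passed no test and overlapped between ages, at 8.43, 10.3, 6.76 and 6.13 CPM at P0, 6.65, 5.24, 9.66 and 9.93 at P14, and 12.7, 10.4, 9.21 and 9.26 at P28. Sdhaf1, which helps the iron-sulfur clusters into Sdhb, was at 3.22 to 4.78 CPM at P28, below its P14 values of 6.10 to 9.10 and its P0 values of 5.16 to 8.19. Its fall of -0.74 ± 0.19 from P14 to P28 (limma adjusted p = 0.0186) missed the threshold without P28 replicate 1 (-0.65, 0.0587) or P28 replicate 4 (-0.67, 0.0594), and its fall of -0.55 ± 0.19 from P0 (0.0203) missed it without those libraries or P0 replicate 1 (-0.46, -0.48 and -0.41).

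In complex III the small subunits, which surround the catalytic core and hold no redox centre, were higher at P14. All 5 of them rose, with a median log2 change of 0.93. Uqcr11 (ENSMUSG00000020163, chr10:80402997-80406821), the smallest of them and among the last to be added to the complex, was at 37.2, 36.1, 41.2 and 43.5 CPM at P0, 92.8, 102, 94.5 and 90.9 at P14, and 65.9, 64.5, 64.3 and 48.1 at P28. No P14 or P28 value reached down to P0, and no P28 value reached P14. Uqcr11 rose 2.39-fold to P14 (log2 1.26 ± 0.11, limma adjusted p = 2.67e-07), fell by 0.65 ± 0.11 to P28 (0.00153) and stayed 0.61 ± 0.11 above P0 (0.000203).

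Uqcr10, which sits beside the cytochrome c1 anchor, followed the same course. Its values were 46.5, 39.1, 39.6 and 51.1 CPM at P0, 85.0, 101, 84.1 and 78.7 at P14, and 67.1, 67.7, 60.1 and 58.8 at P28, with no overlap between ages. It rose by 0.98 ± 0.11 (log2; limma adjusted p = 3.34e-06), then fell by 0.45 ± 0.11 (0.0131). Uqcrb, a subunit in contact with the ubiquinone site, rose and stayed. It was at 41.6, 40.9, 35.3 and 40.9 CPM at P0, 63.8, 72.4, 59.2 and 69.9 at P14, and 60.5, 65.7, 60.2 and 62.0 at P28, so that P14 and P28 overlapped each other and not P0. Its log2 change was 0.73 ± 0.09 to P14 and 0.64 ± 0.09 from P0 to P28 (limma adjusted p = 7.77e-06 and 2.26e-05).

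The other small subunits were Uqcrq, which rose by 0.93 ± 0.15 and was still 0.72 ± 0.15 above P0 at P28 (limma adjusted p = 0.00013 and 0.000937), and the hinge protein Uqcrh, which helps cytochrome c1 meet cytochrome c. Uqcrh rose by 0.48 ± 0.12 (adjusted p = 0.00247) and fell by 0.49 ± 0.12 (0.0115), from 106 ± 13.7 CPM at P0 to 148 ± 21.2 at P14 and 105 ± 7.40 at P28 (SD, n = 4). Of the 2 nuclear catalytic subunits, cytochrome c1 (Cyc1) rose by 0.65 ± 0.08 (1.22e-05) and remained 0.40 ± 0.08 above P0 at P28 (0.000726). The Rieske iron-sulfur protein, Uqcrfs1, was at 93.0, 88.1, 83.9 and 107 CPM at P0, 115, 106, 118 and 124 at P14, and 90.7, 83.8, 76.5 and 72.5 at P28, with P0 overlapping both later ages. It rose by 0.32 ± 0.10 (0.0107) and fell by 0.52 ± 0.10 to P28 (0.0035). Against P0, Uqcrfs1 at P28 had a log2 change of -0.20 that did not pass the test (0.086) and passed it without P28 replicate 1 (-0.26, 0.0424).

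Cytochrome c (Cycs) is the soluble carrier between complexes III and IV and, once released from mitochondria, a trigger of apoptosis. It was at 24.9, 26.0, 26.0 and 28.4 CPM at P0, 47.9, 38.6, 52.9 and 46.7 at P14, and 34.1, 35.5, 31.8 and 31.4 at P28. The 3 ages did not overlap. Cycs rose by 0.80 ± 0.10 (log2; limma adjusted p = 1.25e-05), fell by 0.47 ± 0.10 (0.00762) and was 0.33 ± 0.10 above P0 at P28 (0.0119).

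The core proteins Uqcrc1 and Uqcrc2, large matrix subunits related to a peptidase, gave different results. Uqcrc1 rose by 0.38 ± 0.11 to P14 (limma adjusted p = 0.00757), with 152 to 200 CPM at P0 and 190 to 243 at P14, and was 0.41 ± 0.11 above P0 at P28 (0.00388). Uqcrc2 was at 122, 137, 146 and 156 CPM at P0, 156, 74.6, 158 and 134 at P14, and 149, 143, 138 and 137 at P28. All ages overlapped, and the 74.6 of P14 replicate 2 was the lowest of all 12 values. Uqcrc2 passed no test; its log2 change to P14 of -0.16 (adjusted p = 0.48) became 0.09 without that library (0.367), and its change from P14 to P28 of 0.17 (0.547) became -0.07 (0.593).

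**Figure D3:**
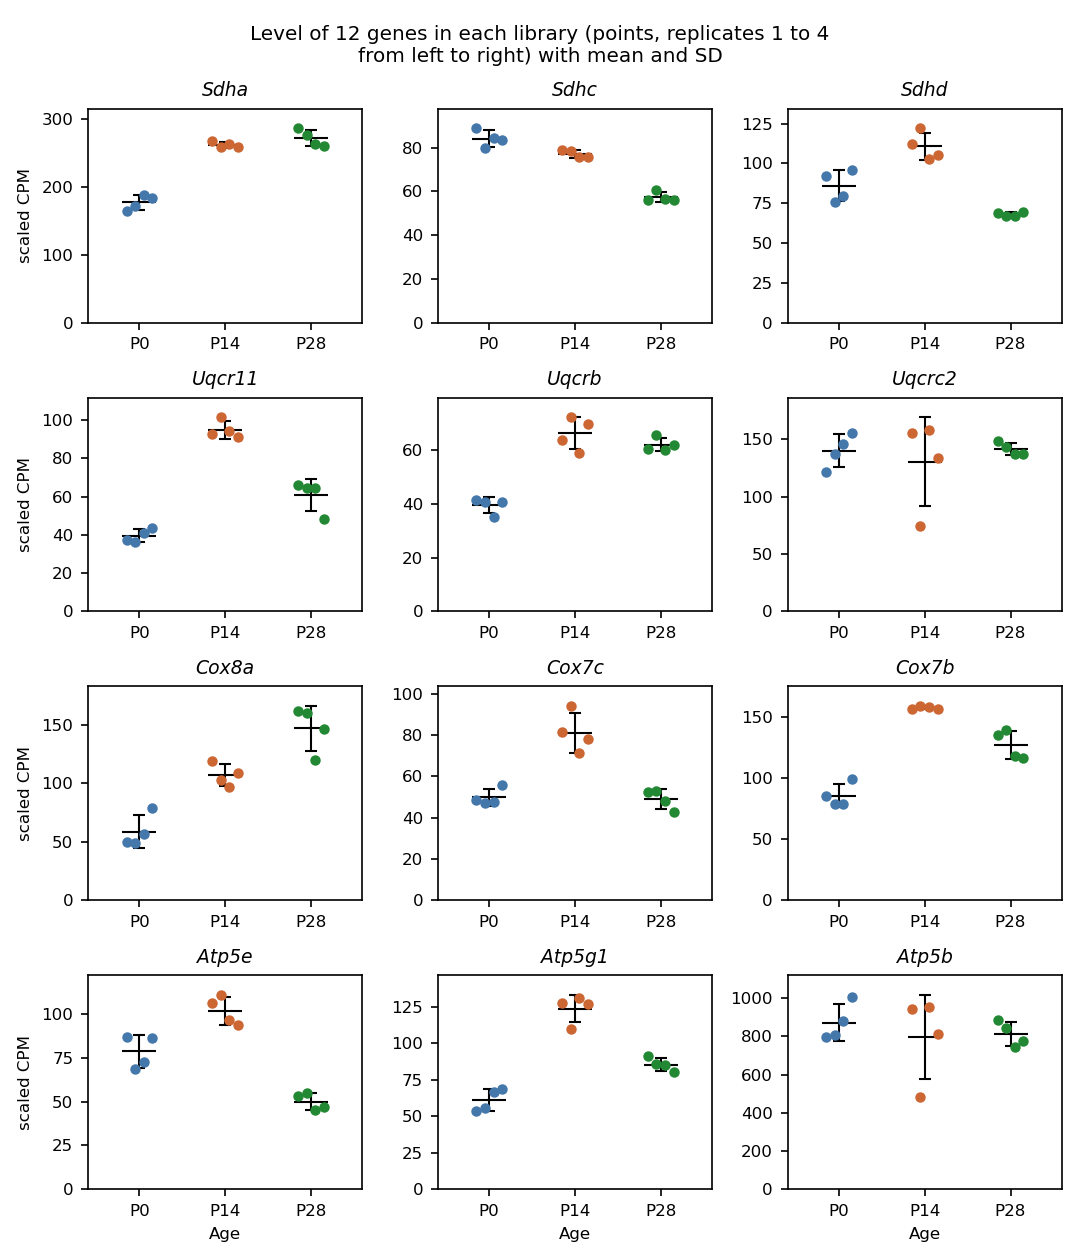
Scaled CPM (y axis, from 0) of 12 members in each library at P0, P14 and P28 (points, replicates 1 to 4 from left to right), with the mean and SD of the 4 libraries (bar and whiskers). Sdha and Uqcrb stay high at P28, Cox8a is highest at P28 (120 to 162), Sdhd, Cox7c and Atp5e peak at P14, and P14 replicate 2 is the low point for Uqcrc2 (74.6) and Atp5b (481).

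In complex IV 9 of the 10 main isoforms of nuclear subunits rose by P14, and none fell. These subunits wrap the core formed by the subunits coded in mitochondrial DNA. Afterwards 6 of the 10 fell and the others parted. Cox8a (ENSMUSG00000035885, chr19:7215158-7217616), a small membrane subunit, was at 50.1, 48.6, 56.4 and 79.3 CPM at P0, 119, 103, 97.0 and 108 at P14, and 162, 160, 120 and 146 at P28. The 3 ages did not overlap, and each later age was higher. Cox8a rose by 0.89 ± 0.15 to P14 (log2; limma adjusted p = 0.000129) and was 2.53-fold above P0 at P28 (1.34 ± 0.15, 2.48e-06). Its further change of 0.45 ± 0.15 from P14 to P28 missed the threshold (adjusted p = 0.0508). It passed in 9 of 26 alternative analyses, among them without P0 replicate 4 (0.0158), P14 replicate 1 (0.0499), P14 replicate 2 (0.0485) or P28 replicate 3 (0.0386), and its adjusted p over all of them lay between 0.0123 and 0.215.

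Cox5b, a zinc-binding subunit on the matrix side, also stayed high. It was at 36.9, 40.2, 40.0 and 61.3 CPM at P0, 83.5, 85.8, 84.8 and 75.0 at P14, and 101, 108, 77.1 and 91.3 at P28, with P14 and P28 overlapping each other and not P0. Cox5b was 0.90 ± 0.15 above P0 at P14 and 1.09 ± 0.15 at P28 (log2; limma adjusted p = 0.000116 and 1.88e-05). Cox5a, its neighbour on the matrix side, was raised at P14 by 0.48 ± 0.18 (0.0333), with 19.3 to 32.1 CPM at P0 overlapping 27.7 to 38.3 at P14. That call was lost without P0 replicate 1 (0.43, 0.0769), 2 (0.43, 0.0852) or 3 (0.41, 0.0926), or without P14 replicate 2 (0.39, 0.0636) or 3 (0.48, 0.0568).

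Cox6c, Cox7c and Cox7a2 were highest at P14 and back near their P0 levels at P28. Cox6c, a membrane-spanning subunit, was at 110, 97.0, 92.7 and 120 CPM at P0, 181, 239, 178 and 177 at P14, and 123, 127, 109 and 110 at P28. It rose by 0.88 ± 0.12 and fell by 0.72 ± 0.12 (log2; limma adjusted p = 1.6e-05 and 0.00133). Cox7c, likewise a small membrane subunit, was at 48.4, 47.2, 47.8 and 55.8 CPM, then 81.2, 94.1, 71.2 and 78.0, then 52.2, 52.8, 47.8 and 42.5, which gave a rise of 0.70 ± 0.11 and a fall of 0.72 ± 0.11 (adjusted p = 5.7e-05 and 0.000741). In both genes every P14 library was above every P0 and P28 library, and P0 and P28 overlapped. Cox7a2 was at 106, 93.2, 91.4 and 118 CPM at P0, 139.3, 141.9, 139.8 and 140.5 at P14, and 92.2, 97.6, 85.8 and 83.4 at P28, a rise of 0.47 ± 0.09 and a fall of 0.64 ± 0.09 (0.000489 and 0.000642).

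Cox4i1, the subunit through which ATP is held to regulate the enzyme, was at 255.3, 229.9, 223.9 and 274.6 CPM at P0, 349.3, 326.6, 309.2 and 349.9 at P14, and 264.8, 274.1, 242.4 and 228.5 at P28. All P14 values were above all others, and P0 and P28 overlapped. It rose by 0.44 ± 0.09 and fell by 0.40 ± 0.09 (limma adjusted p = 0.000859 and 0.0106). Cox7b, on the X chromosome, was at 85.2, 79.0, 79.1 and 99.3 CPM at P0, 156.1, 159, 158.5 and 156.6 at P14, and 135, 139, 118 and 116 at P28, without overlap. It rose by 0.88 ± 0.09 (1.78e-06) and was 0.57 ± 0.09 above P0 at P28 (9.23e-05). Its fall of -0.31 ± 0.09 between P14 and P28 (0.033) missed the threshold without P14 replicate 1, 3 or 4 or P28 replicate 3 or 4, with adjusted p from 0.0552 to 0.101. Cox6b1, on the outer face where cytochrome c docks, was at 128, 116, 128 and 153 CPM at P0, 154.5, 165, 141 and 169 at P14, and 112, 114, 96.2 and 109.9 at P28. P28 lay below both other ages, which overlapped, with a fall of 0.54 ± 0.10 from P14 (0.00294). Its rise of 0.26 ± 0.10 to P14 (0.0306) missed the threshold without P0 replicate 1, 2 or 3 or P14 replicate 4 (0.21 to 0.26, adjusted p 0.0617 to 0.0984), and its fall of -0.28 ± 0.10 from P0 to P28 (0.0232) missed it without P0 replicate 4 or P28 replicate 3 (-0.20 and -0.22). Cox6a1, which lies where the dimer's monomers meet, was the main isoform that passed no test. It was at 93.5, 85.7, 110.7 and 139 CPM at P0, 123, 120.7, 110.4 and 117 at P14, and 129, 127, 94.7 and 112 at P28, all ages overlapping.

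Cox7a2l, a relative of the Cox7a subunits that joins complexes III and IV into supercomplexes, ran against most main isoforms from P0 to P14. From P14 to P28 it fell, as did 6 of the 10 main isoforms. It was at 80.9, 65.9, 68.8 and 77.4 CPM at P0, 59.7, 65.7, 64.3 and 61.6 at P14, and 50.6, 51.2, 48.7 and 47.8 at P28, each age below the one before without overlap. It fell by 0.34 ± 0.08 from P14 to P28 (limma adjusted p = 0.0154) and by 0.55 ± 0.08 from P0 to P28 (4.96e-05). The first step, -0.22 ± 0.08 from P0 to P14 (0.035), was no longer called in 13 of the 26 alternatives, including those without P0 replicate 1 or 4 or P14 replicate 1, 3 or 4 (-0.23 to -0.17). In the authors' values without rescaling it was 0.26 and called as a rise (limma adjusted p = 0.012).

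The isoforms of complex IV known from muscle, lung or testis were detected at low levels and changed in both directions. Cox6a2, the heart and skeletal muscle form of Cox6a1, was at 0.24, 0.51, 0.16 and 0.67 CPM at P0, 4.22, 4.26, 4.05 and 4.57 at P14, and 4.50, 3.52, 2.87 and 2.43 at P28. Every later value was above the P0 values, and Cox6a2 had the highest fold change of all 50 members (log2 2.45 ± 0.21 to P14 and 2.11 ± 0.21 to P28, limma adjusted p = 2.73e-07 and 9.27e-07, on a scale with 0.5 CPM added). At such low counts the size depends on the added constant and the test: over the alternatives that tested it, Cox6a2 stayed called with 1.39 to 3.47 to P14 and 1.14 to 3.09 to P28, the lowest values with 2 CPM added. Of the 8 inhibitory neuron markers, 2 rose by P14 (Vip and Pvalb), 2 fell (Lhx6 and Dlx1) and the rest were not called. Vip lay between 0.36 and 0.90 CPM at P0, 11.9 and 15.4 at P14, and 10.9 and 14.5 at P28. Pvalb lay between 0 and 0.22, 7.43 and 10.7, and 15.0 and 20.9. The sum of the 8 did not rise, at 376 to 395, 220 to 353 and 293 to 384 CPM. The part of these markers in the rise of Cox6a2 was not tested. Cox4i2, the oxygen-responsive form best known from lung, fell. It was at 1.93, 1.68, 1.73 and 1.27 CPM at P0, 0.88, 0.14, 0.46 and 0.40 at P14, and 0.38, 0.24, 0.17 and 0.51 at P28, with changes of -1.20 ± 0.23 to P14 (0.000347) and -1.39 ± 0.23 to P28 (8.72e-05). Over the alternatives these calls held, at -1.84 to -0.57 and -2.33 to -0.65. All 7 vessel markers fell by P14, their sum being 900.4 to 1480 CPM at P0 and 54.3 to 187 at P14 (33.5 to 80.03 at P28), and their part in the fall of Cox4i2 was not tested.

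Cox6b2, the testis form of Cox6b1, was at 1.02, 0.95, 1.49 and 1.27 CPM at P0, 0.65, 1.60, 0.87 and 1.11 at P14, and 0.24, 0.24, 0.47 and 0.67 at P28. It fell by 0.91 ± 0.22 from P0 to P28 on the log2 scale (limma adjusted p = 0.00208), with no overlap. Over the alternatives that call held, at -1.52 to -0.41. Its change of -0.78 ± 0.22 from P14 (0.0272; -1.38 to -0.34 over the alternatives), with overlapping values, missed the threshold without P14 replicate 4 or P28 replicate 1, 2 or 3 (-0.82 to -0.69). Cox7a1, the muscle form of Cox7a2, passed no test, at 1.02, 1.09, 1.81 and 0.37 CPM at P0, 0.76, 0.92, 1.14 and 1.33 at P14, and 1.18, 0.91, 0.46 and 1.34 at P28, all overlapping. Cox7b2, a testis form, was at 0.07 to 0.60 CPM over all libraries and was not tested.

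In complex V 12 of 17 members rose by P14, 1 fell, and 9 fell from P14 to P28. The F1 head, where ATP is made, held most of the members that did not rise. Its catalytic subunit beta, Atp5b, was at 795, 810, 880 and 1006 CPM at P0, 942, 481, 954 and 815 at P14, and 886, 846, 745 and 776 at P28. Its partner alpha, Atp5a1, was at 713, 700, 752 and 885 CPM at P0, 873, 527, 869 and 768 at P14, and 680, 658, 601 and 607 at P28. In both genes P14 replicate 2 was the lowest of the 12 libraries. Neither passed a test. These genes and Sdhb were given fold changes after their values had been seen: Atp5b had a log2 change to P14 of -0.17 (limma adjusted p = 0.415) that became 0.05 without that library (0.632), and Atp5a1 one of -0.03 (0.873) that became 0.14 (0.19).

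The remaining F1 subunits form the central stalk that turns with the c ring. Atp5d (delta) rose by 0.65 ± 0.12 and was 0.47 ± 0.12 above P0 at P28 (log2; limma adjusted p = 0.000204 and 0.00237). Its neighbour Atp5e (epsilon; ENSMUSG00000016252, chr2:174461075-174464101) went from 86.8, 68.7, 72.8 and 86.7 CPM at P0 to 106, 111, 97.0 and 93.6 at P14 and 53.1, 54.9, 45.0 and 46.9 at P28. The 3 ages did not overlap, and P28 was the lowest. Atp5e rose by 0.38 ± 0.10 (0.00601), then fell by 1.02 ± 0.10 (7.14e-05), the most negative change of any member in that comparison, and ended below P0 by -0.65 ± 0.10 (8.83e-05). Atp5c1 (gamma), the shaft itself, was at 197 ± 11.8, 201 ± 19.0 and 162 ± 5.20 CPM and was lower at P28 than at P0 by -0.27 ± 0.09 (0.0112). Its fall of -0.30 ± 0.09 from P14 (0.0282) missed the threshold without any 1 of P14 replicates 1, 3 and 4 or of the 4 P28 replicates (adjusted p 0.0526 to 0.0805).

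The c ring is built from a single mature protein that 3 genes encode with different targeting sequences. Atp5g1 and Atp5g3 both rose to P14 and fell to P28, whereas Atp5g2 did not rise. Atp5g1 was at 53.5, 55.9, 66.2 and 68.7 CPM at P0, 127, 110, 131 and 126 at P14, and 90.9, 85.5, 84.7 and 80.05 at P28. It rose by 1.02 ± 0.10, fell by 0.53 ± 0.10 and stayed 0.48 ± 0.10 above P0 (log2; limma adjusted p = 7.93e-07, 0.00299 and 0.000574). Atp5g3 was at 201, 190, 193 and 245 CPM at P0, 309, 454, 312 and 325 at P14, and 223, 237, 201 and 200 at P28, with P0 and P28 overlapping; it rose by 0.74 ± 0.13 and fell by 0.68 ± 0.13 (0.000187 and 0.00352). Atp5g2 was lower at P14, with 16.8, 14.7, 16.5 and 18.4 CPM at P0, 16.01, 11.8, 14.5 and 11.8 at P14, and 13.3, 14.9, 14.8 and 14.7 at P28. The P0 and P14 values of Atp5g2 overlapped, and its change of -0.29 ± 0.12 (0.0495) was no longer called in 19 of the 26 alternatives. These include the analyses without P0 replicate 1, 3 or 4, P14 replicate 2, 3 or 4 or any 1 P28 library (-0.33 to -0.23, adjusted p 0.0507 to 0.14), and its value in the authors' unscaled data was 0.17.

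In the peripheral stalk, which holds the F1 head still while the ring turns, Atp5h (subunit d) and Atp5j (F6) rose and stayed up. Atp5h was at 124, 106, 101 and 112 CPM at P0, 168, 199, 161 and 168 at P14, and 148, 152, 154 and 138 at P28, with changes of 0.65 ± 0.09 to P14 and 0.42 ± 0.09 to P28 (log2; limma adjusted p = 2.58e-05 and 0.000998). Atp5j rose by 0.36 ± 0.07 and was 0.25 ± 0.07 above P0 at P28 (0.000675 and 0.00861). Atp5pb (subunit b) and Atp5o (OSCP), which link stalk and head, ended lower. Atp5pb was at 179, 183, 177 and 209 CPM at P0, 218, 201, 230 and 217 at P14, and 157, 158, 148 and 144 at P28, and all P28 values were below all others. It fell by 0.51 ± 0.08 from P14 (0.0012) and by 0.30 ± 0.08 from P0 (0.00486). In the authors' values without rescaling it changed by -0.018 from P0 and was not called (limma adjusted p = 0.852). Its rise of 0.21 ± 0.08 to P14 (0.0327) missed the threshold without any 1 of P0 replicates 1, 2 and 3 or P14 replicates 1, 3 and 4 (0.18 to 0.21). Atp5o was lower at P28 than P0 by -0.30 ± 0.10 (0.0203), which missed the threshold without P0 replicate 1 or 4 or P28 replicate 4 (adjusted p 0.0521 to 0.0574).

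All 5 small membrane subunits of complex V rose by P14 (median log2 change 0.60), and 4 of them fell to P28 (median of the 5, -0.65). Subunits e (Atp5k) and g (Atp5l) take part in the pairing of ATP synthases that bends the cristae. Atp5k was at 53.7, 40.5, 39.5 and 48.8 CPM at P0, 65.5, 84.1, 63.1 and 64.1 at P14, and 39.5, 42.7, 35.7 and 40.6 at P28, a rise of 0.60 ± 0.12 and a fall of 0.79 ± 0.12 (limma adjusted p = 0.000722 and 0.00108). Atp5mpl, a small proteolipid, was at 58.7, 51.9, 52.7 and 62.1 CPM, then 78.6, 91.1, 74.0 and 82.2, then 53.6, 59.7, 48.2 and 46.1, a rise of 0.53 ± 0.10 and a fall of 0.65 ± 0.10 (0.000514 and 0.00124). In both genes all P14 libraries were above all others, while P0 and P28 overlapped. Atp5j2 (subunit f) was at 79.9, 74.4, 74.8 and 86.3 CPM at P0, 113, 113, 107 and 107 at P14, and 86.8, 85.7, 83.8 and 76.8 at P28, again with P14 above the other ages, which overlapped. It rose by 0.48 ± 0.08 and fell by 0.40 ± 0.08 (9.69e-05 and 0.00392), and Atp5md (DAPIT) rose by 0.67 ± 0.12 and fell by 0.67 ± 0.12 (0.00023 and 0.00242). Atp5l lay between 1.42 and 1.97 CPM at P0, 2.36 and 4.89 at P14, and 2.46 and 4.05 at P28; it rose by 0.79 ± 0.20 and was 0.64 ± 0.20 above P0 at P28 (0.00376 and 0.0124). Many of these short genes have processed copies elsewhere in the genome, and the labels do not say how reads matching more than 1 place were treated, so the level of Atp5l in particular is uncertain.

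Shifts between isoforms were read as the log2 ratio of 2 genes within a library with 0.5 CPM added to each, so that a factor common to both genes cancels for abundant pairs and only in part for isoforms near or below a few CPM. In 12 of 21 tests over 7 gene pairs the 4 libraries of one age did not overlap the 4 of the other, which gives the smallest p that 70 arrangements allow (exact permutation test, two-sided, p = 0.0286). Adjusted over the 21 tests these stood at 0.05, at the threshold and not under it, so no ratio is called changed. The tests are not separate, since the comparisons share libraries and any c ring ratio follows from the others. How often ratios of other gene pairs lack overlap was not counted, so the 12 have no share to be read beside. The mean log2 ratio of Cox6a2 to Cox6a1 was -6.92 ± 0.41 at P0, -4.63 ± 0.08 at P14 and -4.94 ± 0.25 at P28 (SD, n = 4), and neither later age overlapped P0. For Cox4i2 to Cox4i1 it was -6.84 ± 0.29, -8.48 ± 0.42 and -8.27 ± 0.33, again with both later ages apart from P0. These sizes depend on the added constant: the P0 to P14 difference of Cox6a2 to Cox6a1, 2.29, was 3.12 with 0.1 CPM and 1.24 with 2 CPM, and that of Cox4i2 to Cox4i1, -1.64, was -2.22 and -1.01.

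Among the c ring genes, the ratio of Atp5g1 to Atp5g2 was 1.84 ± 0.14 at P0, 3.15 ± 0.17 at P14 and 2.53 ± 0.14 at P28 (log2, SD, n = 4), and no 2 ages overlapped. Atp5g2 to Atp5g3 went from -3.60 ± 0.09 to -4.64 ± 0.44 and -3.85 ± 0.15, also without overlap. Atp5g1 to Atp5g3 was -1.75 ± 0.16, -1.48 ± 0.38 and -1.33 ± 0.10, with P28 above P0 in all libraries and P14 replicate 2 (-2.04) below every other value. Its difference of 0.15 between P28 and P14 became -0.03 without that library. The ratio of Cox6b2 to Cox6b1 was -6.30 ± 0.19, -6.69 ± 0.32 and -6.93 ± 0.38, with P0 and P28 apart. Its P0 to P28 difference of -0.64 was -1.14 with 0.1 CPM and -0.13 with 2 CPM added, and its P14 to P28 difference of -0.24 became 0.19 with 2 CPM. Cox7a1 to Cox7a2 overlapped at all ages (-6.10 ± 0.74, -6.53 ± 0.24 and -5.98 ± 0.42), and its difference of 0.12 between P28 and P0 became -0.20 without P0 replicate 4 and -0.03 without P28 replicate 4.

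**Figure D4:**
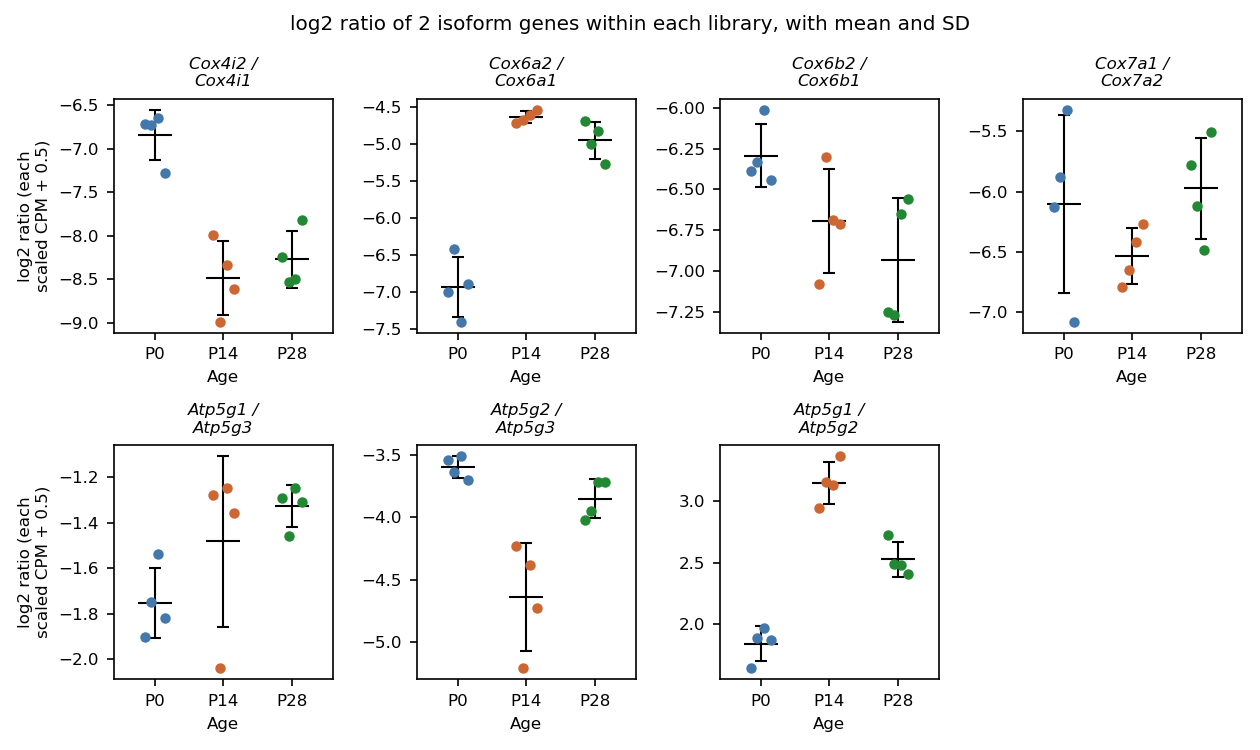
Log2 ratio of 2 isoform genes within each library (y axis, 0.5 CPM added to each gene; scales differ between panels and do not start at 0) at P0, P14 and P28, with points for the 4 libraries and mean and SD as bar and whiskers. Cox6a2 over Cox6a1 moves up after P0 and Cox4i2 over Cox4i1 down, and Atp5g1 over Atp5g2 is separate at all 3 ages.

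Promoters were available for 40 of the 51 members in RefSeq (GRCm38.p6, the build also called mm10), and the 250 bases before each start were searched on both strands for the letters bound by 3 factors known to act on respiratory genes. The NRF1 letters GCATGCGC occurred in 6 of the 40 (15%), beside 2.56% of 27025 genes. These 27025 are all RefSeq genes with such a window, tested here or not, and were not matched to the members in expression or GC content. The ETS letters CCGGAAG, bound by GABP, occurred in 11 (27.5%, beside 7.83%), and the YY1 letters AAGATGGC in 1 (2.5%, beside 1.83%). The palindrome GCGCATGCGC holds the NRF1 letters on both strands and was counted once per gene. Of the 15 members with any of the 3, 11 rose to P14, 1 fell and 7 fell from P14 to P28, and of the 24 tested members with none in this window the counts were 17, 1 and 15. Shown here, with the matched letters in capitals, are 3 windows. Uqcr11 had the highest rise to P14 among complex III genes (chr10:80406822-80407071, minus strand, ETS letters from 66 bases before the start). Atp5e had the deepest fall after P14 (chr2:174464102-174464351, minus strand, ETS letters from 102 bases before the start). Atp5g2 was the c ring gene that did not rise (chr15:102671048-102671297, minus strand, NRF1 palindrome from 42 bases before the start).
Uqcr11: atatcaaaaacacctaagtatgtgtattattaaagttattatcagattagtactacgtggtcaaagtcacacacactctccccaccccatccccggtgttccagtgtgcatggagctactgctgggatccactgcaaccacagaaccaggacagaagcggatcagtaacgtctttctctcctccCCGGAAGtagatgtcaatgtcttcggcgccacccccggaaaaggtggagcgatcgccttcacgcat
Atp5e: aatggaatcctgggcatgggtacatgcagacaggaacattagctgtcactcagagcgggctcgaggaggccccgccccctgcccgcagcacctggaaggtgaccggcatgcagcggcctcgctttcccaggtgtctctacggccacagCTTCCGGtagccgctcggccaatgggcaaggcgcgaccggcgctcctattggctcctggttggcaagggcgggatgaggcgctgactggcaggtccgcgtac
Atp5g2: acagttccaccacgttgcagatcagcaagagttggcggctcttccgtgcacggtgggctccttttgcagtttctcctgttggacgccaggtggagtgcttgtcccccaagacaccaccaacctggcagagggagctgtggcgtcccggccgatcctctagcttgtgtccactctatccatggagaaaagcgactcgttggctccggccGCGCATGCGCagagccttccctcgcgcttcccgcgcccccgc
A match describes these letters in this window and is no evidence of binding. Transcripts of the factors themselves were looked up after their values had been seen. Nrf1 was at 43.4 ± 0.41 CPM at P0 and 24.0 ± 4.07 at P28, Gabpa at 51.0 ± 7.79 and 37.0 ± 1.29, and Yy1 at 56.1 ± 5.89 and 30.2 ± 0.93 (SD, n = 4), and all 3 were called lower at P14 and at P28 than at P0. At P14 Nrf1 lay between 23.16 and 45.33 CPM, overlapping P0 (42.91 to 43.84). Gabpa lay between 26.21 and 45.35, also overlapping P0 (41.13 to 60.04). Yy1 lay between 28.61 and 36.73, below P0 (49.26 to 63.56).

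Other genes of the pathway were counted from lists, to be read beside the shares of all genes given above (34.4% risen and 34.5% fallen by P14, 9.22% and 9.09% from P14 to P28, 35.7% and 35.6% over the whole interval). Of 36 complex I subunits, 27 rose and 0 fell by P14, 0 rose and 10 fell from P14 to P28, and 19 were higher and 3 lower at P28 than at P0. Of the 7 mitochondrially coded subunits found in the tables, 6 rose to P14, 0 changed afterwards and 5 were higher at P28 than at P0; these transcripts are made in mitochondria and were read here in purified nuclei. Among 29 assembly factors of complexes III to V the counts were 16 higher and 5 lower at P14, 0 and 3 from P14 to P28, and 12 and 5 over the whole interval. In the TCA cycle 12 of 16 genes rose and 1 fell by P14, 0 rose and 3 fell to P28, and 9 were higher and 2 lower at P28 than at P0. For the 7 carriers of ATP, ADP and phosphate and porins these counts were 4 and 1, 0 and 1, and 3 and 1.

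Of the 19 regulators of mitochondrial biogenesis, 5 rose and 7 fell by P14 (26.3% and 36.8%, beside 34.4% and 34.5% of all genes), 0 changed from P14 to P28, and 7 were higher and 8 lower at P28 than at P0 (36.8% and 42.1%, beside 35.7% and 35.6%), shares near those of all genes. Ppargc1a, the coactivator PGC-1 alpha, rose from 18.4 ± 2.05 CPM at P0 to 38.9 ± 2.64 at P14 and was at 34.7 ± 2.41 at P28 (SD, n = 4). Of the cytosolic ribosomal protein genes, 2 of 82 rose and 77 fell by P14, 0 rose and 44 fell from P14 to P28, and 1 was higher and 79 lower at P28 than at P0. Of the 8 nuclear long noncoding RNAs, 7 rose and 1 fell by P14, 1 rose and 0 fell to P28, and 5 were higher at P28 than at P0 and 0 lower.

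Some libraries stood highest or lowest of their age for many members, given here without the shares over all genes. At P0, replicate 4 had the highest value of the 4 in 33 of 50 members and replicate 2 the lowest in 22. At P28, replicate 2 was highest in 28, replicate 4 lowest in 27 and replicate 3 lowest in 17. P14 replicate 2 was highest of its age in 24 members and lowest in 15. Across the 50 members its log2 deviation from the P14 mean had a Spearman correlation of -0.52 with the length of the longest coding transcript, beside -0.26 over 13897 genes. The 24 members highest in it had a median length of 686 bases (341 to 1521) and the 15 lowest in it one of 1655 (647 to 4715), so that the lengths overlapped. Other libraries had correlations of like size over the members: 0.50 in P14 replicate 3, 0.42 in P14 replicate 1 and -0.40 in P28 replicate 2, and the others lay between -0.23 and 0.32. With GC content the one furthest from 0 was -0.53, in P0 replicate 2. Deviations within an age sum to about 0, so its libraries are not independent, and these are descriptions across genes, which are not independent replicates. Without P14 replicate 2 the counts were 35 risen and 2 fallen from P0 to P14, 1 and 29 from P14 to P28, and 18 and 12 from P0 to P28.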

How the data were processed

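RNA was measured in 12 libraries, 4 at each of 3 ages. The authors deposited 1 table of normalized counts per age, a signal made by dividing reads per gene by 1 factor per library; the submitters' processing notes name DESeq2 and mm10, and aligner, counter and versions were not given in the sources used. Libraries were TruSeq stranded mRNA, per the labels' protocols. Every value was a whole multiple of the library's smallest step within 0.05 reads (100% of values), which gave back whole reads.

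Reads were rescaled to reads per 1000000 (CPM) over the 25834 genes in all 3 tables and divided by a median-of-ratios factor (0.936 to 1.04), here called scaled CPM. Genes with at least 1 scaled CPM in at least 4 libraries (15734) entered limma 3.58.1 on log2(scaled CPM + 0.5), with trend, robust settings and age as a factor over all 12 libraries; p-values were adjusted by Benjamini-Hochberg over all of them at 0.05. Fold changes on this scale understate those of low genes. Depth sets the precision: 3 reads, the limit that a count of 0 allows, equal 0.0858 to 0.236 scaled CPM, and limits cover counting error only. Libraries are biological replicates per the series' design text.

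Data were simulated for 15734 genes, with 67 changed 1.5-fold, 67 changed 2-fold and 66 changed 4-fold in each comparison. The fit recovered 100% of 4-fold changes in each comparison, with 0 sign errors. For 2-fold and 1.5-fold changes it recovered 65.7% and 8.96% in P14 versus P0 and in P28 versus P14. In P28 versus P0 these were 91% and 19.4%. The simulation changed a far smaller share of genes than was called here and used the same dispersion for all genes. These rates are therefore not the recovery rates in these data. Isoform ratios were tested by exact permutation. The 26 alternatives changed the pseudocount, filter, scaling, test (edgeR 4.0.16 and DESeq2 1.42.0 on recovered reads), libraries or block.

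Members and lists were chosen with earlier results of these data known. Values in every library are given for, in each complex, the 3 members with the smallest adjusted p in P14 versus P0, the largest change against the majority, up to 8 members called in P28 versus P14 and all isoform pairs; Cycs, Cox5b, Cox7a2l, Atp5a1 and Atp5b were added after their values were seen. Positions and promoters are from RefSeq (GRCm38.p6), and all 51 members matched by symbol. Transcript lengths are from an older build (NCBIM37) and were matched for 51 members.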

Additional observations from a re-analysis of the deposited data

Results flagged for a closer look

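Among 171 groups of 4 libraries (members and isoform ratios by age), 13 had 1 library far from the other 3 by Dixon's criterion at 95%; chance gives about 1 group in 20. P14 replicate 2 was the high one for Sdhaf1 (9.10 scaled CPM, the others 6.10 to 6.47), Cox6c (239, others 177 to 181), Atp5g3 (454, others 309 to 325) and Atp5k (84.1, others 63.1 to 65.5), and the low one for the log2 ratio of Atp5g1 to Atp5g3 (-2.04, others -1.36 to -1.25). P0 replicate 4 was high for Cox5a (32.1, others 19.3 to 20.5), Cox5b (61.3, others 36.9 to 40.2) and Cox7c (55.8, others 47.2 to 48.4) and low for the log2 ratio of Cox4i2 to Cox4i1 (-7.28, others -6.73 to -6.65).

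The other 4 lay in different libraries. Uqcrb was low in P0 replicate 3 (35.3, others 40.9 to 41.6), Sdhc high in P28 replicate 2 (60.6, others 55.9 to 56.6), Uqcr11 low in P28 replicate 4 (48.1, others 64.3 to 65.9) and Atp5g2 low in P28 replicate 1 (13.3, others 14.7 to 14.9). Cox8b, a muscle isoform of Cox8a that is no member because it was not listed at P0, had 8 reads (0.379 scaled CPM) in P28 replicate 1, above the limit that a count of 0 allows there (0.142), and at most 3 reads in each other P14 or P28 library.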

How the results depend on the processing

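Of 26 alternatives, the count of members risen to P14 stayed between 32 and 43 and the count fallen from P14 to P28 between 23 and 34. The 3 members fallen by P14 became 1 with no filter on low values, with library totals alone, quantile normalization, the deposited values without rescaling, edgeR, only the 8 libraries compared, the replicate block, library weights (chosen after seeing the data) or without both merged libraries, and 1 to 3 when single libraries were left out; Cox4i2 was the one kept. The 0 members risen from P14 to P28 became 1 (Cox8a) with edgeR, DESeq2, a stricter filter (mean of 5 CPM), only the 8 libraries compared or library weights, and 0 to 1 without single libraries. At P28 against P0, the deposited values gave 29 risen and 5 fallen, and without both merged libraries 7 had fallen. In every alternative that tested the gene, 32 of the 35 risen and 1 of the 3 fallen by P14 kept their call. So did 21 of the 26 fallen from P14 to P28, all 17 risen and 5 of the 11 fallen from P0 to P28. Cox4i2, Cox6a2, Cox6b2 and Atp5l were tested in 25 of the 26 alternatives. The replicate numbers of the labels did not pair libraries: same-number correlations of deviations were -0.513, -0.141, 0.357 and -0.0381 for P0 and P14. With the replicate block the counts were 34 and 1, 0 and 25, and 17 and 11.

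In the deposited values, the following log2 changes changed sign: Sdhc (0.36), Uqcrc2 (0.33), Cox7a2l (0.26), Atp5a1 (0.46), Atp5b (0.31) and Atp5g2 (0.17) from P0 to P14, Uqcrc2 (-0.0262) and Atp5g2 (-0.098) from P14 to P28, and Uqcrfs1 (0.0821), Cox6b1 (0.0041) and Atp5c1 (0.0069) from P0 to P28. From P0 to P28, the falls of Sdhd (-0.0471), Atp5pb (-0.018), Atp5o (-0.017) and Sdhaf1 (-0.29) kept their sign there and were not called (limma adjusted p 0.189 to 0.894). The medians of the deposited values over all genes are given with the results, and the other causes were not tested. The P0 to P14 change of Atp5a1 was also positive with library totals (0.0565), quantile normalization (0.13), edgeR (0.0325), DESeq2 (0.0019), library weights (0.18), and without P0 replicate 4 (0.0453) or P14 replicate 2 (0.137), with -0.105 the lowest without a single library. That of Atp5b was positive with quantile normalization (0.0067) or library weights (0.0885), and without single libraries it lay between -0.276 and 0.0537, the latter without P14 replicate 2. That of Uqcrc2 was 0.098 with library weights and -0.267 to 0.0921 without single libraries, and its P14 to P28 change was -0.098 and -0.0726 to 0.287; both changed sign without P14 replicate 2. Of the isoform ratios, Cox6b2 to Cox6b1 from P14 to P28 became 0.19 with a pseudocount of 2, Cox7a1 to Cox7a2 from P0 to P28 lay between -0.202 and 0.386 without single libraries (-0.0304 without P28 replicate 4) and was -0.0395 without both merged libraries, and Atp5g1 to Atp5g3 from P14 to P28 lay between -0.0344 and 0.231; the cause was not tested. Depth limits Cox4i2, Cox6a2, Cox6b2, Cox7a1 and Cox7b2, which rest on 1 to 149 reads per library.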
